A study of Mus musculus with 6 samples.

Results

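Fatty acid beta-oxidation cuts acyl chains into acetyl-CoA units in mitochondria and peroxisomes, and this account follows 34 of its genes and regulators among the 21936 genes listed for each library. The genes were taken by symbol from a fixed list: acyl-CoA synthetases and the carnitine shuttle, the mitochondrial and peroxisomal enzymes, the electron transfer flavoproteins, and the PPAR nuclear receptors with their coactivators. All 34 were found once in each of the 6 tables of FPKM, a read density scaled to gene length and library size. RNA came from sorted mouse macrophages after 4 months of high-fat diet, with 3 libraries in each group. The group labelled WT is described as homozygous for loxP-flanked Alkbh5 and lacking Apoe. The group labelled CKO is described in the same way, with Cre recombinase under Lyz2 in addition. Lyz2-Cre is active in macrophages, monocytes and granulocytes, so a deletion would not be limited to macrophages. By their labels both groups share the floxed gene, the missing Apoe and the diet. Separate animals or cultures are not named for the 3 libraries of either group. The p-values therefore describe only how these 6 libraries scatter, and that scatter may be technical.

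Reads recovered from the FPKM and summed over the listed genes came to 15422154 to 18418903 per library, which is not the number sequenced. Alkbh5, which removes the N6-methyl mark from RNA and should be lost in the group labelled CKO, read 3.77, 3.95 and 3.88 FPKM under the WT label and 9.15, 8.61 and 8.50 under the CKO label, against the label. Apoe, labelled as absent in both groups, averaged 1635 FPKM under the WT label and read 89.6 to 98.1 under the CKO label. Lyz2, the lysozyme gene that carries the Cre, averaged 15116 ± 992 FPKM under the WT label and 6556 ± 211 under the CKO label (mean ± SD, n = 3). Whole-gene reads cannot show whether an exon is missing, and every direction here refers to the libraries as labelled. The macrophage markers fixed for this check (Adgre1, Csf1r, Cd68 and 6 others) were all above 1 FPKM. Of these 9, 5 were called higher under the CKO label and 4 lower, beside 30.5% and 50.5% of all genes tested. Some differed widely between the groups. Fcgr1 read 28.8 ± 2.42 FPKM under the WT label and 235 ± 5.77 under the CKO label, and Adgre1 222 ± 2.98 and 778 ± 19.5. Mrc1 read 29.7 ± 0.853 and 1.88 ± 0.118 FPKM, and Mertk 18.4 ± 0.433 and 8.18 ± 0.615. Most neutrophil markers moved with the groups. Their summed level was 660.3 to 949.5 FPKM in the libraries labelled WT and 119.7 to 129.4 in those labelled CKO. The greatest parts under the WT label were S100a9 and S100a8, at means of 425 and 153 FPKM. Of 9 tested 8 were lower, beside 50.5% of all genes tested, and Mmp8 rose from 7.07 ± 1.35 to 16.6 ± 1.66 FPKM. Csf3r fell only from 41.6 ± 1.82 to 32.4 ± 1.24 FPKM. Ly6g was at 0 in all but 1 library, labelled WT. Markers of hepatocytes and of muscle, tissues that rely on fat oxidation, summed to at most 0.0541 and 0.0616 FPKM per library. Of the adipocyte markers Lep, Plin1 and Cidec were at 0 throughout and Adipoq did not exceed 0.130 FPKM, while Lpl and Fabp4, which macrophages also express, were detected. Erythroid and platelet markers summed to 161.7 to 175.4 FPKM under the WT label and 106.3 to 119.2 under the CKO label. The platelet gene Ppbp fell from 101 ± 6.71 to 38.5 ± 3.16 FPKM, and Pf4 read 68.9 ± 1.61 and 74.0 ± 6.08. Endothelial and smooth muscle markers summed to at most 8.90 FPKM per library, B cell markers to at most 3.67, T and NK cell markers to at most 1.49 and fibroblast markers to at most 0.904. The parts that neutrophil RNA and the differing macrophage markers play in the results below were not tested. In bulk RNA, fewer cells of a type and less of a transcript per cell cannot be told apart.

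A fatty acid is first joined to coenzyme A by an acyl-CoA synthetase. CPT1 then moves long chains onto carnitine, a translocase carries them into the mitochondrion, and CPT2 returns them to coenzyme A. Inside, repeated rounds of dehydrogenation, hydration, a second dehydrogenation and thiolysis shorten the chain, and the electrons leave through the electron transfer flavoprotein to the respiratory chain. Peroxisomes shorten very long and branched chains by a parallel set of enzymes. PPAR receptors, paired with RXR and helped by the PGC-1 coactivators, switch these genes on when fatty acids are abundant. In macrophages, fatty acid oxidation is known as a fuel route of alternatively activated cells, whereas cells stimulated by microbial products rely more on glycolysis.

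RefSeq promoter windows (build GRCm38.p6, 250 bases before to 50 after a gene's start) were at hand for 29 of the 34 genes, in 30 windows. Acaa2, Acat1, Decr1, Hsd17b4 and Ppargc1b had none. The stretches shown are those before the starts of the gene with the greatest change (Acsl1, whose table lists 2 starts), of a pair of acyl-CoA dehydrogenase genes that fell together, and of the flavoprotein subunit gene Etfa, and the stretch between the genes of both subunits of one enzyme complex. Each is 250 bases long, except the last, and reads 5′ to 3′ on the gene's strand, with the last base just before the start. Capitals mark AGGTCA, the half-site read by many nuclear receptors, GGGCGG, the Sp1 box, and CCAAT, each on either strand.
Acsl1, first start (chr8:46470787-46471036, plus strand): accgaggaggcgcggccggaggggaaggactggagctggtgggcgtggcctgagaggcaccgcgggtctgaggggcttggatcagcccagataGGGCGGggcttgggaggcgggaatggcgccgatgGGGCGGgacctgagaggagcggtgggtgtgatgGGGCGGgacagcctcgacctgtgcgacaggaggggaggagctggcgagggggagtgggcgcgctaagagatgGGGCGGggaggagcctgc
Acsl1, second start (chr8:46490716-46490965, plus strand): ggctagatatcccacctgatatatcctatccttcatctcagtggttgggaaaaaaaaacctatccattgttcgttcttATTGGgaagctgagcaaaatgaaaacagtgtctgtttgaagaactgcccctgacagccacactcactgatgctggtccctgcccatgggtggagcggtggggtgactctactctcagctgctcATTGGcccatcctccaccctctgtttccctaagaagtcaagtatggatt
Acadm (chr3:153944644-153944893, minus strand): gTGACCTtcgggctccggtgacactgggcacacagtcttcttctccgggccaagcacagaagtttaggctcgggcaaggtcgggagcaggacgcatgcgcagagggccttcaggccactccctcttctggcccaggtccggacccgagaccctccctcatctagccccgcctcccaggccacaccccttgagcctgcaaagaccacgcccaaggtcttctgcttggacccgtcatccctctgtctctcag
Acadl (chr1:66863310-66863559, minus strand): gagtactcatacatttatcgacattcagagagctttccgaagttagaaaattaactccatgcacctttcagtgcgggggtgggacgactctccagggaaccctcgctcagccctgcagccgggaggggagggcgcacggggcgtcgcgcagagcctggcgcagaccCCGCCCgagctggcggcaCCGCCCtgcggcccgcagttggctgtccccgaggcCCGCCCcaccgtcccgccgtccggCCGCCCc
Etfa (chr9:55512244-55512493, minus strand): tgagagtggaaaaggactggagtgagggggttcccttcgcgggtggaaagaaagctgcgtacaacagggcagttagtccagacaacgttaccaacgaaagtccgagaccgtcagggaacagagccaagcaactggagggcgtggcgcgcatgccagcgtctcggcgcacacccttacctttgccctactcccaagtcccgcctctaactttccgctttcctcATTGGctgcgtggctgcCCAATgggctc
Between Hadha and Hadhb (chr5:30155163-30155247, plus strand): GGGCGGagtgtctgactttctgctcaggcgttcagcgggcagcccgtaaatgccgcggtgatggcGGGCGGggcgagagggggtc

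None of these stretches overlaps an exon of the GENCODE M21 annotation. The first Acsl1 stretch holds 4 GGGCGG boxes and no CCAAT, and the second holds 2 CCAAT and no GGGCGG. The Acadm stretch holds 1 AGGTCA. Only 85 bases separate Hadha, on the minus strand, from Hadhb, on the plus strand, and they hold 2 GGGCGG boxes. Over whole windows GGGCGG was found in 24 of 30, or 80.0%, beside 35.7% of all 32851 windows of the table. AGGTCA was found in 4 of 30 (Acadm, Acadvl, Cpt1a and Echs1), or 13.3%, beside 16.3% of all. CCAAT was found in 12 of 30, or 40.0%, beside 37.4%. The direct repeat that PPAR binds with RXR, AGGTCA followed after 1 base by AGGTCA, and the ERR receptor site, TCA directly followed by AGGTCA, both of which contain AGGTCA, were in none of the 30 windows, beside 0.0396% and 0.423% of all. The NRF1 site, GCGCA directly followed by TGCGC, was in 2 (Etfdh and Ppara), or 6.67%, beside 0.971%. Both strands were searched, the motifs were chosen after values were seen, and the counts describe only letters in short windows. The direct repeat and the ERR site are so rare over all windows that finding neither in 30 says nothing about these genes.

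Most enzymes of the pathway were lower in the libraries labelled CKO, and the 3 acyl-CoA synthetases among the 34 genes, Acsl1, Acsl4 and Acsl5, were higher. Of the 34 genes, 31 reached 1 FPKM in at least 3 libraries and were tested. Of these 31, 19 fell and 7 rose by limma at a Benjamini-Hochberg adjusted p under 0.05, and 5 were not called (Slc25a20, Acadvl, Acadsb, Eci2 and Ppargc1b). Most genes of these macrophages were called, 81.1% of all 9953 tested, with 50.5% lower and 30.5% higher. Beside that background the genes of this pathway were lower in 61.3% and higher in 22.6% of cases, and their median log2 fold change was -0.41, beside -0.14 for all genes tested. Fold changes are of log2(FPKM + 1), labelled CKO minus labelled WT, and understate the change of low genes. For each of the 26 called genes, all 3 libraries of a group lay on one side of the other 3. That is 83.9% of the 31 genes, beside 82.5% of all genes tested, so this separation is near the background. A two-sided exact permutation test of single genes cannot give a p under 0.1 with 3 libraries a side. Within a group, a gene's 3 values varied by a median of 3.91% (coefficient of variation, 0.379% to 10.6%).

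**Figure D1:**
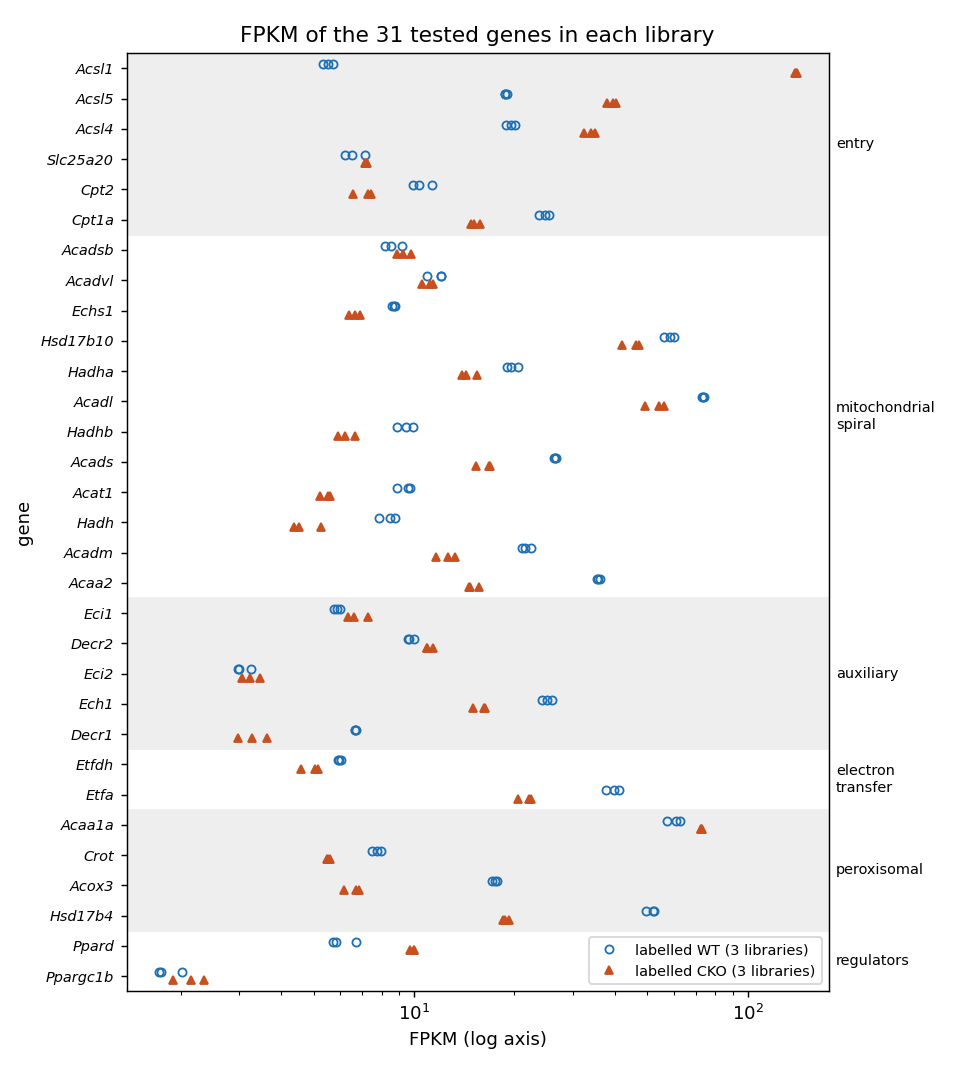
FPKM (log axis) of each of the 31 tested genes in every library, grouped by role, with open circles for the 3 libraries labelled WT and triangles for the 3 labelled CKO. The points of a group lie close together, Acsl1 moves from 5.34 to 5.70 FPKM up to 138 to 140, and for most enzymes of the mitochondrial spiral the triangles lie to the left of the circles.

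Which small changes were called depended on how libraries were scaled to each other. Among the 31 genes only Acadvl changed sign, and it was not called on any of the 3 scales compared here. Over all genes tested, 6086 fold changes were negative on the deposited scale and 4985 after median-of-ratios scaling. Median-of-ratios scaling raised the fold changes of all genes by a median of 0.15 and the share of higher genes among calls from 37.7% to 49.9%. After it 11 of the 31 genes were higher and 18 lower, beside 39.7% and 39.8% of all genes tested (79.5% in either direction), and quantile normalization gave the same counts beside 35.9% and 43.4% (79.3% in either direction). The 18 lower genes were called lower, and 7 higher genes called higher, under the deposited scale and under both of these. Etfdh lost its call after either, and Slc25a20, Acadsb, Eci2 and Ppargc1b became higher. The median of the 31 genes was -0.25 after median-of-ratios scaling, beside 0.00 for all genes tested.

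**Figure D2:**
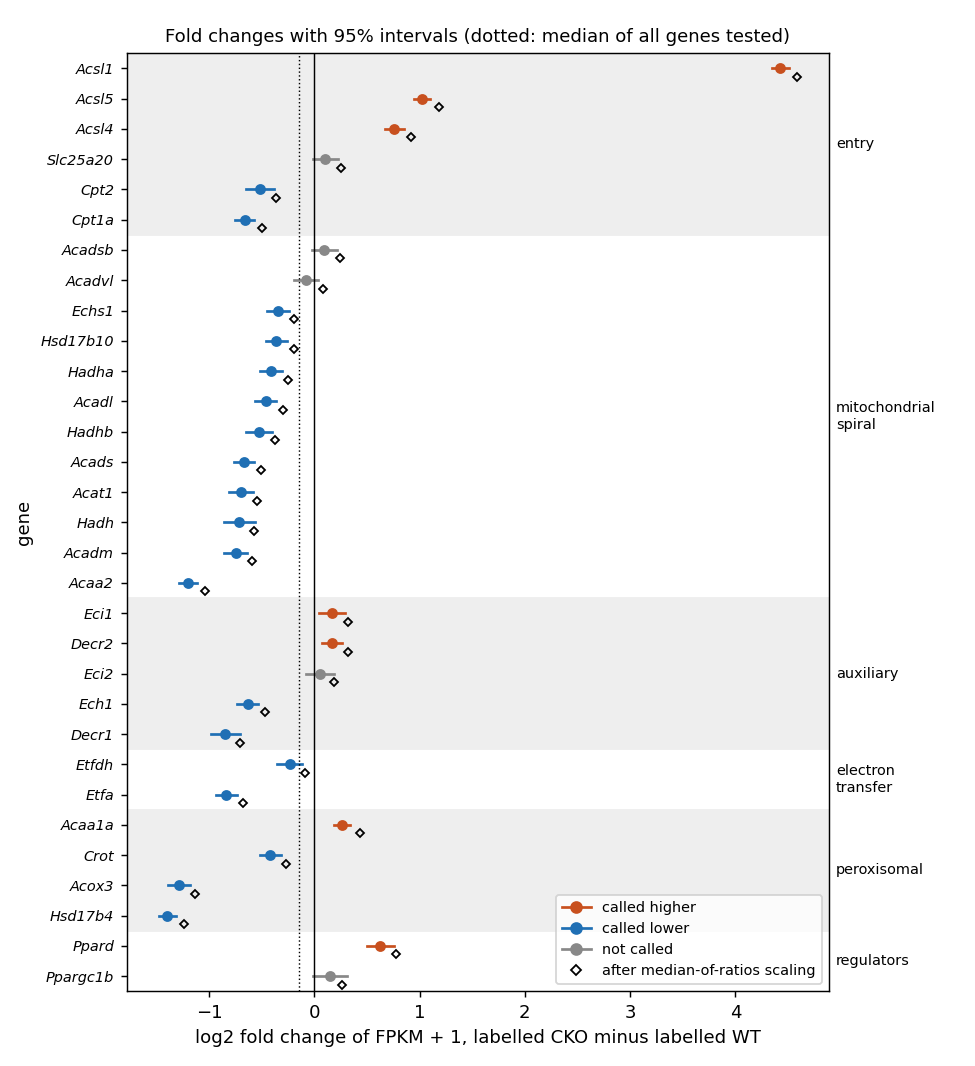
Log2 fold changes (labelled CKO minus labelled WT) of the 31 tested genes with 95% intervals, grouped by role, orange for genes called higher, blue for lower and grey for not called. Diamonds give the values after median-of-ratios scaling, the dotted line the median of all genes tested (-0.14), and only Acsl1, at 4.43, lies beyond 2.

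At the entry to the pathway the synthetases and the carnitine shuttle went in different directions. Acsl1, the main long-chain acyl-CoA synthetase of fat-burning and fat-storing tissues, read 5.70, 5.34 and 5.54 FPKM under the WT label and 140, 138 and 140 under the CKO label. That is a 25.2-fold difference of means (log2 fold change 4.43, SE 0.0349, limma adjusted p = 2.04e-15), on chromosome 8 from 46471037 to 46536051 in mm10. Acsl5, a synthetase of mitochondria and endoplasmic reticulum, rose from 18.7, 18.7 and 18.9 to 40.4, 39.4 and 37.8 FPKM (limma adjusted p = 2.48e-10). Acsl4, which prefers arachidonic acid and supplies polyunsaturated phospholipids, read 20.1, 19.5 and 18.8 against 33.8, 34.9 and 32.3 FPKM. Acsl4 lies on the X chromosome. Of 4 Y-linked genes 3 were at 0 in every library, and the fourth did not exceed 0.0123 FPKM. Acsl3, which belongs to the same family but not to this list, read 2.41 ± 0.148 and 0.790 ± 0.189 FPKM (limma adjusted p = 7.43e-07).

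The make-up of the synthetase family differed between the groups. Shares within a library do not depend on a single scaling factor per library, such as the median-of-ratios factors, and were not computed after quantile normalization. Acsl1 made up 12.1%, 11.6% and 12.2% of the summed FPKM of Acsl1, Acsl3, Acsl4 and Acsl5 in the libraries labelled WT. In those labelled CKO it made up 65.2%, 64.8% and 66.2%. Acsl4 and Acsl5 held 42.1% ± 0.710 and 40.7% ± 0.873 in the first group and 15.8% ± 0.519 and 18.4% ± 0.417 in the second, although both were higher in FPKM. The exact two-sided permutation test gave p = 0.1 for each of these shares, the smallest possible with n = 3. These shares, and the ratios given further on, were chosen after their values were seen.

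**Figure D3:**
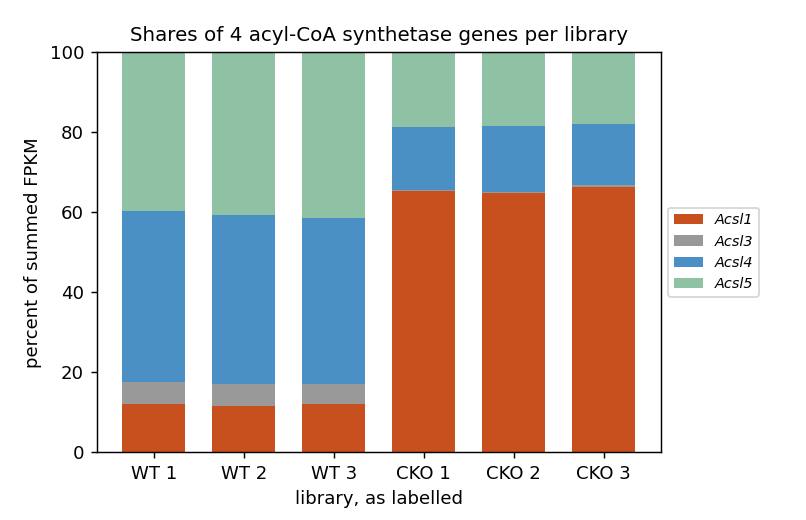
Share (percent of summed FPKM) of Acsl1, Acsl3, Acsl4 and Acsl5 in each of the 6 libraries, as stacked bars. Acsl1 takes 11.6% to 12.2% of the bar in the libraries labelled WT and 64.8% to 66.2% in those labelled CKO.

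Cpt1a encodes the liver-type carnitine palmitoyltransferase of the outer mitochondrial membrane, the step that malonyl-CoA inhibits. It read 24.7, 23.7 and 25.4 FPKM under the WT label and 15.1, 14.8 and 15.7 under the CKO label, which is -0.66 as a log2 fold change (SE 0.0416, limma adjusted p = 4.28e-08, chromosome 19, 3322334 to 3385733). Cpt2, its partner on the inner membrane, read 10.4, 11.4 and 9.92 against 6.57, 7.46 and 7.26 FPKM (limma adjusted p = 1.09e-05). The lowest library labelled WT lay above the highest labelled CKO for both. Slc25a20, the translocase between them, read 6.51, 6.22 and 7.12 against 7.11, 7.24 and 7.19 FPKM. Its groups overlapped, and the log2 difference was 0.10 (95% interval -0.01 to 0.22, limma adjusted p = 0.0938). With Acsl1 up and Cpt1a down, the ratio of Acsl1 to Cpt1a within a library went from 0.225 ± 0.00638 to 9.16 ± 0.265. The ratio of Cpt1a to Cpt2 was 2.35 ± 0.242 and 2.15 ± 0.161, a difference within the spread (exact permutation p = 0.3, n = 3).

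Of the 12 genes of the mitochondrial spiral 10 fell, none rose, and Acadvl and Acadsb were not called. Acadsb was called higher after either rescaling. Thus 83.3% of the 12 were lower, beside 50.5% lower and 30.5% higher among all genes tested. After median-of-ratios scaling 10 were again lower, beside 39.8% lower and 39.7% higher among all. The summed FPKM of the 12 genes was 291 ± 2.52 in the libraries labelled WT and 200.05 ± 1.58 in those labelled CKO. The first dehydrogenation is made by enzymes for different chain lengths. Acadl (long chains) read 73.6, 72.8 and 73.7 against 49.2, 55.9 and 54.2 FPKM. Acadm (medium chains), whose human deficiency is screened for in newborns, read 22.4, 21.5 and 21.1 against 12.7, 13.3 and 11.6. Acads (short chains) read 26.2, 26.4 and 26.6 against 15.3, 16.8 and 16.8. None of these 3 genes had overlapping groups, which was also so for 82.5% of all genes tested. Their log2 fold changes were -0.46, -0.75 and -0.66 (limma adjusted p = 1.64e-06, 7.29e-08 and 5.37e-08). Acadsb, which acts on short branched chains from isoleucine, read 8.65 ± 0.527 and 9.31 ± 0.448 FPKM, with overlapping groups (limma adjusted p = 0.123).

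Acadvl, the dehydrogenase for very long chains, read 12.05, 12.07 and 10.91 FPKM under the WT label and 10.54, 11.37 and 11.15 under the CKO label. The groups overlapped, with a log2 difference of -0.08 (95% interval -0.19 to 0.04, limma adjusted p = 0.187). Of its exon bases 42.9% are shared with Dvl2, a Wnt pathway gene on the opposite strand, which read 7.30, 7.91 and 7.31 against 2.57, 3.10 and 2.46 FPKM. The labels name a stranded kit, but whether strand was used in counting is not given in the sources used here. How much of either value comes from the other gene was not tested.

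The later steps of the spiral moved the same way. Hadha and Hadhb encode the 2 subunits of the mitochondrial trifunctional protein and lie head to head on chromosome 5, across the 85 bases printed above. Hadha read 19.48, 20.53 and 18.97 against 14.29, 13.96 and 15.40 FPKM, and Hadhb read 9.95, 8.87 and 9.49 against 6.64, 6.19 and 5.94. Both fell without overlap of the groups, by 0.41 and 0.52 on the log2 scale (limma adjusted p = 8.78e-06 and 4.61e-06). Their ratio within a library was 2.09 ± 0.195 and 2.33 ± 0.231, with overlapping groups (exact permutation p = 0.3, n = 3). Echs1, the short-chain hydratase, fell from 8.69 ± 0.0996 to 6.64 ± 0.238 FPKM (mean ± SD, n = 3 libraries a group, as throughout). Hadh, the short-chain 3-hydroxyacyl-CoA dehydrogenase, fell from 8.35 ± 0.468 to 4.71 ± 0.475. Hsd17b10, a dehydrogenase of isoleucine breakdown that is also a part of mitochondrial RNase P, fell from 58.1 ± 2.05 to 45.2 ± 2.81 FPKM; its gene is on the X chromosome.

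Acaa2 and Acat1, 2 of the thiolases of this set, fell. Acaa2, the mitochondrial 3-ketoacyl-CoA thiolase, read 35.7, 36.2 and 35.4 FPKM under the WT label and 15.6, 14.8 and 14.6 under the CKO label. It had the greatest decrease among the genes of the spiral, 2.38-fold (log2 fold change -1.20, SE 0.0377, limma adjusted p = 8.81e-11). Acat1, the acetoacetyl-CoA thiolase that also serves ketone bodies, read 9.75, 9.61 and 8.86 against 5.59, 5.52 and 5.22 FPKM (limma adjusted p = 1.99e-07).

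Enzymes that prepare double bonds were split. Decr1, the mitochondrial 2,4-dienoyl-CoA reductase, read 6.72, 6.64 and 6.65 against 3.63, 3.26 and 2.97 FPKM, and Ech1, a dienoyl-CoA isomerase, read 24.2, 25.0 and 26.0 against 16.2, 15.0 and 16.3. Both fell (limma adjusted p = 1.58e-07 and 1.12e-07). Decr2, the peroxisomal counterpart of Decr1, rose by 0.17 on the log2 scale, from 9.598, 9.641 and 10.02 to 11.37, 10.97 and 10.95 FPKM (limma adjusted p = 0.00317). Eci1, an enoyl-CoA isomerase of mitochondria, read 5.87 ± 0.121 and 6.75 ± 0.477 FPKM, also a difference of 0.17 (limma adjusted p = 0.0140). That call was lost without CKO replicate 1 (adjusted p = 0.0621) and with limma voom on reads (0.0523). Eci2, its relative in peroxisomes and mitochondria, read 3.08 ± 0.159 and 3.25 ± 0.202 FPKM, with overlapping groups (limma adjusted p = 0.381).

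The electron transfer flavoprotein carries electrons from the acyl-CoA dehydrogenases as a pair of subunits, Etfa and Etfb, to the oxidoreductase Etfdh. Etfa read 39.68, 41.15 and 37.68 FPKM under the WT label and 22.17, 20.53 and 22.38 under the CKO label (log2 fold change -0.84, SE 0.0449, limma adjusted p = 1.02e-08). Etfdh read 5.92, 5.95 and 6.04 against 5.05, 4.58 and 5.17 FPKM, -0.23 as a log2 fold change (limma adjusted p = 0.00187), and was not called after either rescaling (adjusted p = 0.143 and 0.0674). The ratio of Etfa to Etfdh, which a single factor per library leaves as it is, went from 6.62 ± 0.346 to 4.40 ± 0.0787 without overlap (exact permutation p = 0.1, the smallest possible, n = 3).

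Etfb was almost without reads although its partner Etfa was abundant. It was listed at 0.233, 0.144 and 0.206 FPKM under the WT label and 0.0501, 0.111 and 0.0965 under the CKO label, from 12 and 5 reads in all, and was not tested. In the annotation 53.0% of its exon bases also belong to exons of a second listed gene on the same strand, Etfbl (Gm45233 in GENCODE M21), which was at 0 in all 6 libraries. The level of Etfb can thus not be read from these tables, and the cause of the low values was not tested.

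Peroxisomal genes fell and rose side by side. Hsd17b4, the D-bifunctional protein that carries out the middle steps of peroxisomal oxidation, read 51.9, 49.5 and 52.3 against 19.3, 18.7 and 18.5 FPKM. Its log2 fold change of -1.40 was the most negative of the 31 genes (SE 0.0362, limma adjusted p = 1.68e-11, 2.72-fold lower). Acox3, an acyl-CoA oxidase for branched chains, read 17.7, 17.1 and 17.5 against 6.82, 6.72 and 6.18 FPKM (log2 fold change -1.29, limma adjusted p = 2.98e-10). Crot, which puts the shortened chains onto carnitine for export to mitochondria, fell from 7.73 ± 0.222 to 5.55 ± 0.0563 FPKM. Acaa1a, the peroxisomal thiolase, went the other way, with 60.8, 57.4 and 62.6 against 72.5, 72.2 and 72.8 FPKM (log2 fold change 0.26, limma adjusted p = 3.28e-05). The ratio of Hsd17b4 to Acaa1a within a library was 0.851 ± 0.0137 and 0.260 ± 0.00596 (exact permutation p = 0.1, n = 3). Of the exon bases of Acaa1a 6.57% are shared with Myd88 on the opposite strand. Its close paralog Acaa1b did not exceed 0.138 FPKM in any library.

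Among the regulators only the PPAR family member Ppard and the coactivator Ppargc1b were expressed enough to be tested. Ppard, the broadly expressed PPAR delta, read 6.70, 5.70 and 5.82 FPKM under the WT label and 9.741, 10.03 and 9.995 under the CKO label (log2 fold change 0.63, SE 0.0577, limma adjusted p = 1.22e-06). Ppargc1b, which encodes PGC-1 beta, read 2.01, 1.72 and 1.75 against 2.15, 1.90 and 2.35 FPKM, with overlapping groups (log2 difference 0.15, 95% interval -0.01 to 0.31, limma adjusted p = 0.0773). Ppargc1a, for PGC-1 alpha, was near the limit of detection with 24 reads in each group, at most 0.0911 FPKM. Ppara, the PPAR of liver and heart, had 0 reads in the group labelled WT and 1 in the group labelled CKO. Where a library has no read, 3 reads of a 1 kb gene, the level a count of 0 allows for counting error alone, correspond to 0.163 to 0.195 FPKM. Ppara and Ppargc1a are longer, with listed lengths of 3836 and 6592 bases, so for them 3 reads correspond to less. Pparg, the PPAR of fat cells and alternatively activated macrophages and outside the 34 genes, read 22.7, 22.5 and 22.2 against 0.632, 0.681 and 0.628 FPKM. Ppard was thus the lower of these receptors in one group and the higher in the other, with a ratio of Ppard to Pparg of 0.271 ± 0.0219 and 15.4 ± 0.597.

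Other genes of fatty acid oxidation mostly fell. Of 40 listed, 32 were tested, 25 fell and 4 rose, with a median of -0.48. After median-of-ratios scaling 20 fell and 6 rose. The counts of this list and of those that follow stand beside 50.5% lower and 30.5% higher among all genes tested, and 39.8% and 39.7% after that scaling. In percent, 78.1% of this list were lower, 79.2% of the PPAR list, 75.0% of the lipid droplet list, 33.3% of the mitochondrial housekeeping list and 38.5% of the peroxisome biogenesis list. Oxct1, which lets cells use ketone bodies, read 94.9, 99.3 and 96.4 against 17.2, 17.2 and 16.3 FPKM. The acyl-CoA thioesterases Acot1 and Acot2, which are near copies whose reads could be split, read 2.51 ± 0.175 and 4.80 ± 0.203 against 0.0248 ± 0.0158 and 0.755 ± 0.0920 FPKM. Abcd2, a peroxisomal importer of very long chains, fell from 7.01 ± 0.104 to 1.39 ± 0.102, and Pccb, a subunit of propionyl-CoA carboxylase, from 13.9 ± 0.537 to 3.86 ± 0.428 FPKM.

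Targets and partners of PPAR receptors fell in 19 of 24 tested cases and rose in 3, with a median of -0.57, and the same counts stood after median-of-ratios scaling. Beside Pparg, the greatest changes of log2(FPKM + 1) were in Fabp4, a fatty acid carrier and PPAR gamma target (39.4 ± 2.14 against 6.76 ± 0.145 FPKM), in Ucp2, an inner-membrane carrier (87.1 ± 1.18 against 20.1 ± 0.199), and in Acot1 and Acot2. Angptl4, an inhibitor of lipoprotein lipase named after its values were seen, read 2.07, 1.98 and 2.24 against 0.0989, 0.0732 and 0.0159 FPKM. These rest on 393 and 11 reads in all. As a ratio of mean FPKM, without the added 1, Angptl4 was 33.5-fold lower under the CKO label. The same ratio was 5.83 for Fabp4, 4.34 for Ucp2 and 6.35 for Acot2, but 34.7 for Pparg and 101 for Acot1. Of 8 lipid droplet genes 6 fell and 1 rose, with a median of -0.88. Lipa, the lysosomal acid lipase, fell from 306, 309 and 321 to 79.0, 82.2 and 80.1 FPKM, Mgll, which splits monoglycerides, from 9.25 ± 0.370 to 1.17 ± 0.101, and the droplet coat gene Plin3 from 52.1 ± 0.794 to 25.7 ± 0.759. G0s2, an inhibitor of the triglyceride lipase, fell from 2.46 ± 0.725 to 0.417 ± 0.364. Hilpda, a hypoxia-induced inhibitor of the same lipase, rose from 3.78 ± 0.370 to 35.0 ± 1.78 FPKM.

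General genes of the organelles were not lower as a group. Of 27 mitochondrial housekeeping genes 12 rose, 9 fell and 6 were not called, with a median of 0.05, and 18 rose and 6 fell after median-of-ratios scaling. The greatest changes of log2(FPKM + 1) were rises in the outer-membrane channels Vdac3 (13.6 ± 0.321 to 26.9 ± 1.07 FPKM) and Vdac1 (55.4 ± 1.73 to 97.1 ± 1.83), the matrix proteases Clpp (14.7 ± 1.52 to 27.5 ± 1.38) and Lonp1 (16.2 ± 0.793 to 29.3 ± 0.574), and the import channel Timm23 (32.8 ± 1.41 to 52.7 ± 1.79). Of 13 peroxisome biogenesis genes 5 rose and 5 fell, with a median of -0.10. Among them Pex10 changed by -0.87, Pex16 by 0.77 and Pex26 by 0.41 on the log2 scale. No test compares the lists with each other.

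**Figure D4:**
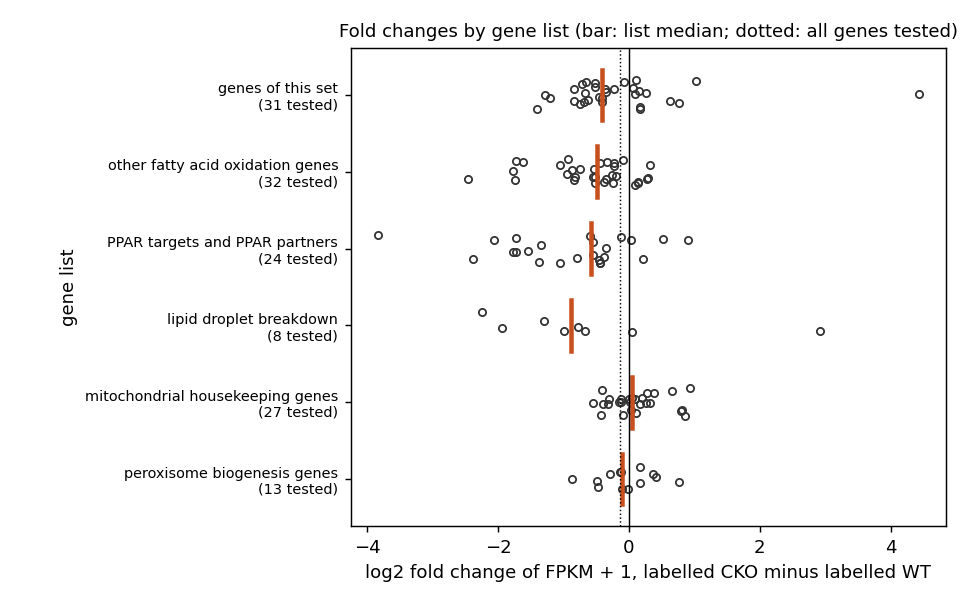
Log2 fold changes (labelled CKO minus labelled WT) of each tested gene in 6 lists, 1 open circle a gene, with the list median as a bar and the median of all genes tested as a dotted line. The medians of the oxidation, PPAR and lipid droplet lists lie at -0.88 to -0.41, and those of the mitochondrial housekeeping and peroxisome biogenesis lists at 0.05 and -0.10.

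Of the genes that fell, 4 and the sum of the spiral were set against the transcript of citrate synthase (Cs), a mitochondrial enzyme. Whether this transcript follows mitochondrial content was not tested, so the ratios are not corrected for that content. Cs itself read 43.8, 42.7 and 42.7 against 44.3, 45.3 and 44.4 FPKM, a log2 difference of 0.05 (limma adjusted p = 0.148), and 0.22 after median-of-ratios scaling, where it was called higher (adjusted p = 6.0e-05). The summed FPKM of the 12 spiral genes was 6.71, 6.80 and 6.76 times that of Cs in the libraries labelled WT and 4.48, 4.43 and 4.53 times in those labelled CKO. The ratio of Cpt1a to Cs went from 0.571 ± 0.0212 to 0.341 ± 0.0141, of Acadm to Cs from 0.503 ± 0.00835 to 0.280 ± 0.0165, of Acaa2 to Cs from 0.829 ± 0.0161 to 0.336 ± 0.0149, and of Etfa to Cs from 0.917 ± 0.0416 to 0.486 ± 0.0285. The groups did not overlap in any of these 5 ratios (exact permutation p = 0.1 each, the smallest possible, n = 3). These 4 genes and most of the 12 spiral genes were already known to fall, and Cs hardly differed on the deposited scale. The separation follows from that choice and adds no support. As single genes, 82.5% of all genes tested also had groups that did not overlap. In all, 15 ratios and shares were computed.

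**Figure D5:**
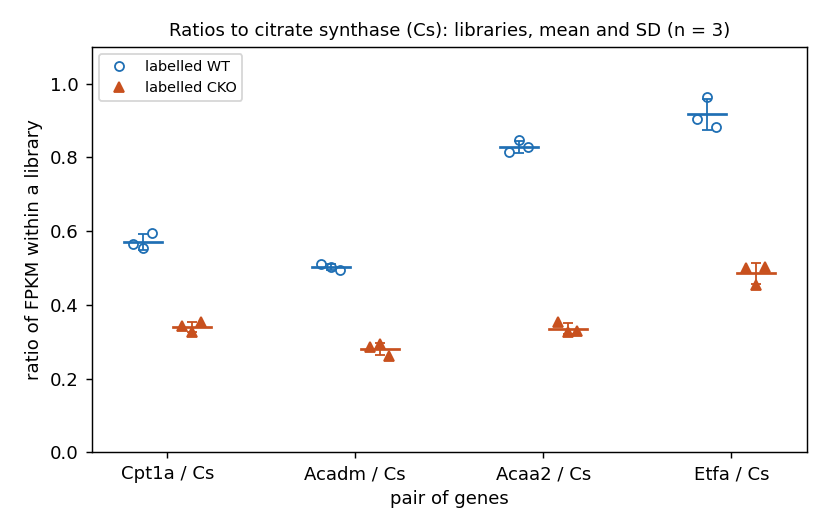
Ratio of the FPKM of Cpt1a, Acadm, Acaa2 and Etfa to that of citrate synthase (Cs) within each library, with open circles for labelled WT, triangles for labelled CKO, and bars for mean and SD (n = 3). In each pair the libraries labelled CKO lie lower, from 0.917 down to 0.486 on average for Etfa.

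Over all 34 genes the summed FPKM hardly differed, at 612.3 to 622.4 in the libraries labelled WT and 621.8 to 626.6 in those labelled CKO. Without the 3 acyl-CoA synthetases it was 568.7 to 577.9 and 409.2 to 414.8 FPKM. Of the 28 tested genes then left 19 fell and 4 rose. That is 67.9% lower and 14.3% higher, beside 50.5% and 30.5% of all genes tested. All 3 genes left out had risen, and they were left out with their values known. Leaving them out raises the share of lower genes by construction, so these shares are no separate result. Levels compared between genes rest on the listed gene lengths, which count every annotated exon. For Echs1 the listed length was 8286 bases, where its longest coding transcript has 1557, so its FPKM is lower than a value per transcript length would be, while for Etfa the lengths were 1835 and 1392.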

How the data were processed

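Libraries of sorted macrophage RNA were made with a stranded mRNA kit, per the labels' protocols. The authors deposited 1 table of FPKM per library, per the file headers, other values being the annotation. The submitters' processing notes name build mm10 and, with no role or order given, HISAT2 2.1.0, featureCounts 1.6.2 and, among others, fastp 0.19.3 and StringTie 1.3.4d. Each row ends in a stray carriage return inside its last cell, so lines were split at line feeds only. All 21936 values per table were then numbers of at least 0.

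FPKM times listed length gave whole multiples of 1 step for 100% of values within 0.01. With 1 step taken as 1 read, this yields reads per gene and their sum over the listed genes per library. A gene entered the test when 3 or more libraries reached 1 FPKM; limma 3.58.1 in R 4.3.3 was run on log2(FPKM + 1), with an intensity trend, group as the only term and Benjamini-Hochberg adjustment over all 9953 genes at 0.05. The test was checked on simulated data in which only a small part of the genes changed. Most genes were called here, so that check does not carry over to these calls. Ratios, exact tests and figures used Python 3.11.15, numpy 2.4.6, pandas 2.3.3, scipy 1.17.1 and matplotlib 3.10.9. Genes, loci and exon overlaps were matched to GENCODE M21 by gene identifier, and promoters to the RefSeq table by symbol.

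All 34 genes are described, and from each other list up to 5 called genes with the greatest change and no overlap between groups, besides genes named after their values were seen (Acsl3, Acaa1b, Angptl4, Cs, Dvl2, Etfbl). Some genes that this rule would name are not reported here. The genes and lists were chosen with earlier results of these data known. Alternatives were a replicate block, scaling by median-of-ratios or by quantiles, pseudocounts of 0.1 and 0.5, a stricter filter (mean FPKM from 5 up) or none, each library left out with the same genes tested, limma without trend and robust limma. The limma voom test on recovered reads was chosen after seeing the data. Replicate numbers were shared by the groups but did not pair them.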

Additional observations from a re-analysis of the deposited data

How the results depend on the processing

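No called gene of the 31 tested reversed its direction under any of the 16 alternatives run, counting each left-out library as 1. Median-of-ratios scaling and quantile normalization gave 11 genes of the pathway called higher in place of 7, and 2 lipid droplet genes called higher in place of 1; how they move single genes stands in the report. A mean FPKM of at least 5 as filter left 6402 genes, so that 3185 of all genes were called lower in place of 5031, 14 of the other fatty acid oxidation genes lower in place of 25, and 2 peroxisome biogenesis genes higher and 1 lower in place of 5 each. With 1 library left out, 6 to 8 genes of the pathway were called higher and 19 lower. Ppargc1b was called higher without WT replicate 1 (limma adjusted p = 0.0387) or CKO replicate 2 (0.0290), Acadsb without WT replicate 2 (0.0405) and Slc25a20 without WT replicate 3 (0.0252), and the cause was not tested. The limma voom test on recovered reads called 6 higher and 19 lower. With a replicate block, 7 genes were higher and 19 lower, as without it. Same-numbered libraries did not deviate together (correlations of -0.0095, 0.0165 and -0.0849), so the numbers do not show a pairing. Precision is limited by 3 libraries a group and, for Etfb, Ppara and Ppargc1a, by 24 reads a group or fewer.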
